A study of Homo sapiens with 2 samples.

Results

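TNFAIP8, MINDY2, USP6NL, EPC2, ELAPOR2, LETM2 and NSD3 are 7 genes whose promoter fragments had fewer listed chromatin contacts in K562 cells treated with ponatinib than in cells given DMSO. They were chosen by their numbers of listed interactions in the 2 treatments, being among the genes with the largest drops, so those numbers are given as a description and support nothing here. The members were found as every captured fragment that holds an end of one of these genes. This gave 8 of 17883 listed bait fragments and 7 of 13717 protein-coding genes with a listed bait. Together these fragments took part in 293 of the 138160 different interactions listed in either treatment, 256 of 84049 in DMSO and 158 of 91305 in ponatinib.

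K562 is an established human chronic myelogenous leukaemia line that carries the BCR-ABL1 fusion kinase, and ponatinib inhibits that kinase. Cells received the vehicle DMSO or 100 nM ponatinib for 24 h before promoter-capture Hi-C. In this assay crosslinked chromatin is cut with HindIII and religated, and RNA probes then pull out ligation products that contain a promoter. There was 1 library per treatment from 1 cell line, so no difference below has a replicate check, no test of the treatment exists and no gene expression was measured. Chromosomes 9 and 22, which the fusion joins, were linked by 1654 interactions in DMSO and 1781 in ponatinib.

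A promoter contact in such a list is a pair of restriction fragments, the captured bait and its partner, ligated more often than the analysis expected at that distance. Promoters commonly contact enhancers, other promoters and the bodies of their own and neighbouring genes. Each listed pair carries the authors' own score, and none lies below 5, so a pair missing from a list may have scored just under that limit. The read depth behind the scores is unknown, and the 95% intervals given are exact binomial (Clopper-Pearson) and cover counting error only.

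The 7 genes do different work in the cell and form no single pathway. TNFAIP8 is a TNF-induced protein of the TIPE family that restrains apoptosis. MINDY2 is a deubiquitinase that trims K48-linked ubiquitin chains. USP6NL, also called RN-tre, is a GTPase-activating protein for RAB5 and acts in endocytosis of growth factor receptors. ELAPOR2 is a transmembrane protein related to the endosome and lysosome protein ELAPOR1. EPC2 is a subunit of the NuA4/TIP60 histone acetyltransferase complex, NSD3 is a histone H3K36 methyltransferase, and LETM2 is a relative of the mitochondrial inner membrane protein LETM1.

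For 5 of the genes the RefSeq promoter table (GRCh38.p14, the same hg38 assembly) places a transcription start on the bait itself. These are TNFAIP8, MINDY2, USP6NL, EPC2 and ELAPOR2. The 250 bases upstream of the start are shown for the 3 genes with the largest relative difference, since this is the promoter that each bait carries. Capitals mark the E-box motif CANNTG, and the other letters are in lower case.
TNFAIP8: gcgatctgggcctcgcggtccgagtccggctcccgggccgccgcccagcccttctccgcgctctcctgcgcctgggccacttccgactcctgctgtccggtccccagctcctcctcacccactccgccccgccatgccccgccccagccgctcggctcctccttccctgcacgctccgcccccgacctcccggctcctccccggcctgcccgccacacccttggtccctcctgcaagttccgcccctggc
MINDY2: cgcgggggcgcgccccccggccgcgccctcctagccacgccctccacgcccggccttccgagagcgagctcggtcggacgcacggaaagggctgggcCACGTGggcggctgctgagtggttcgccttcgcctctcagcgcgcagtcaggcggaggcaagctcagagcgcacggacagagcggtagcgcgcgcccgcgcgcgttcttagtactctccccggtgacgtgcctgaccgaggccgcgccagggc
USP6NL: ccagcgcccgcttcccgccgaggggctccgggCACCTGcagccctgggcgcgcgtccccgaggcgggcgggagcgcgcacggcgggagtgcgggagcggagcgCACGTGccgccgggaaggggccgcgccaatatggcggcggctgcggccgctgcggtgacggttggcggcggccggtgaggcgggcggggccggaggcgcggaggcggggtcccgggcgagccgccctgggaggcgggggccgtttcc
The TNFAIP8 stretch lies at chr5:119268509-119268758 on the plus strand, the MINDY2 stretch at chr15:58771052-58771301 on the plus strand, and the USP6NL stretch at chr10:11611651-11611900 on the minus strand. All are rich in G and C, with 76% at TNFAIP8, 74.8% at MINDY2 and 82.8% at USP6NL, and the EPC2 and ELAPOR2 stretches had 78% and 81.6%. The median over 35116 promoter stretches of the same length was 58%. An E-box occurred in all of these but TNFAIP8, and in 61.8% of all stretches. None of the 5 held the GATA motif AGATAA, the STAT motif TTCNNNGAA, the ETS motif CCGGAAG or the HindIII site AAGCTT on either strand, which occur in 9.17%, 6.57%, 8.52% and 5.02% of all stretches. TNFAIP8 has further RefSeq starts at 119354773 and 119356019, 85.5 and 86.7 kb from the nearest bait, and ELAPOR2 has one at 86965899, so the contacts below belong to the first start of each gene.

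The TNFAIP8 bait (chr5:119265025-119273581) had 30 interactions in DMSO and 9 in ponatinib, and 6 fragment pairs were in both lists. The 2 lists differed most close to the promoter. Within 50 kb of the bait there were 5 partners in DMSO and 0 in ponatinib, from 50 to 200 kb there were 15 and 2, and from 200 to 500 kb there were 9 and 7. Partners inside the TNFAIP8 gene body numbered 9 in DMSO and 1 in ponatinib. Partners in DMXL1, the gene on the other side of the bait that encodes a factor for vacuolar ATPase assembly, numbered 6 and 0.

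Of the 6 shared pairs of TNFAIP8, 4 lay in a stretch between DTWD2, a tRNA modification enzyme gene, and DMXL1. Its strongest shared partner lay 209 kb from the bait (119060133 to 119060846) and scored 12.61 in DMSO and 5.55 in ponatinib. A second partner in this stretch, 231 kb away and itself a bait, scored 6.2 and 11.7, so the scores of shared partners did not all move one way. Of the 6 shared pairs 4 had the higher score in ponatinib. The strongest partner listed in DMSO alone was the DMXL1 promoter bait, with a score of 10, and the strongest in ponatinib alone lay 250 kb away with 8.46.

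MINDY2 (bait chr15:58760751-58773040, which also holds an end of MINDY2-DT) had 23 interactions in DMSO and 7 in ponatinib, and only 1 fragment pair was in both lists. Most partners lay 327 to 585 kb away, from the water channel gene AQP9 to the hepatic lipase gene LIPC, a span of 265 kb that held 20 partners in DMSO and 7 in ponatinib. Of these partners, 18 and 7 overlapped no protein-coding gene. The shared pair, 502 kb from the bait, scored 14.35 in DMSO, the highest of any MINDY2 pair, and 6.31 in ponatinib. From 200 to 500 kb there were 11 partners in DMSO and 1 in ponatinib, while from 500 to 1000 kb there were 10 and 6. Towards higher coordinates 3 partners were listed in DMSO, among them 2 in SLTM, an RNA-binding protein gene, and 0 in ponatinib.

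Near matches were more frequent than identical fragments. At MINDY2 each of the 7 ponatinib partners lay within 10 kb of a partner listed in DMSO, whereas 9 of the 23 DMSO partners lay within 10 kb of one listed in ponatinib. For TNFAIP8 the same held for 9 of 9 ponatinib partners and 18 of 30 DMSO partners. Both genes were chosen for many partners in DMSO and few in ponatinib. A few partners set beside many find a near match more easily than the reverse. The uneven matching is therefore a description, and nothing is read from it.

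USP6NL had 2 baits. The one with the transcription start (chr10:11603735-11612325, shared with USP6NL-AS1) had 22 interactions in DMSO and 8 in ponatinib (7 in both lists), and the one at the other end of the gene (chr10:11450338-11462557) had 4 and 2 with 0 shared. The promoter bait contacted its own gene body in 15 interactions in DMSO and 6 in ponatinib, and all 6 were shared. Its strongest partner, 74.8 kb on the other side and in no protein-coding gene, scored 13.53 and 10.85. Contacts of the promoter bait with ECHDC3, a mitochondrial enzyme gene, were listed 2 times in DMSO and 0 times in ponatinib. The bait at the other end of the gene contacted ECHDC3 in both lists, and both of its ponatinib pairs lay there, with scores of 5.02 and 5.14. A contact of the promoter bait with that of UPF2, a nonsense-mediated decay factor, was listed in DMSO alone with a score of 5.19. Within 50 kb of the promoter bait there were 7 partners in DMSO and 1 in ponatinib.

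**Figure D1:**
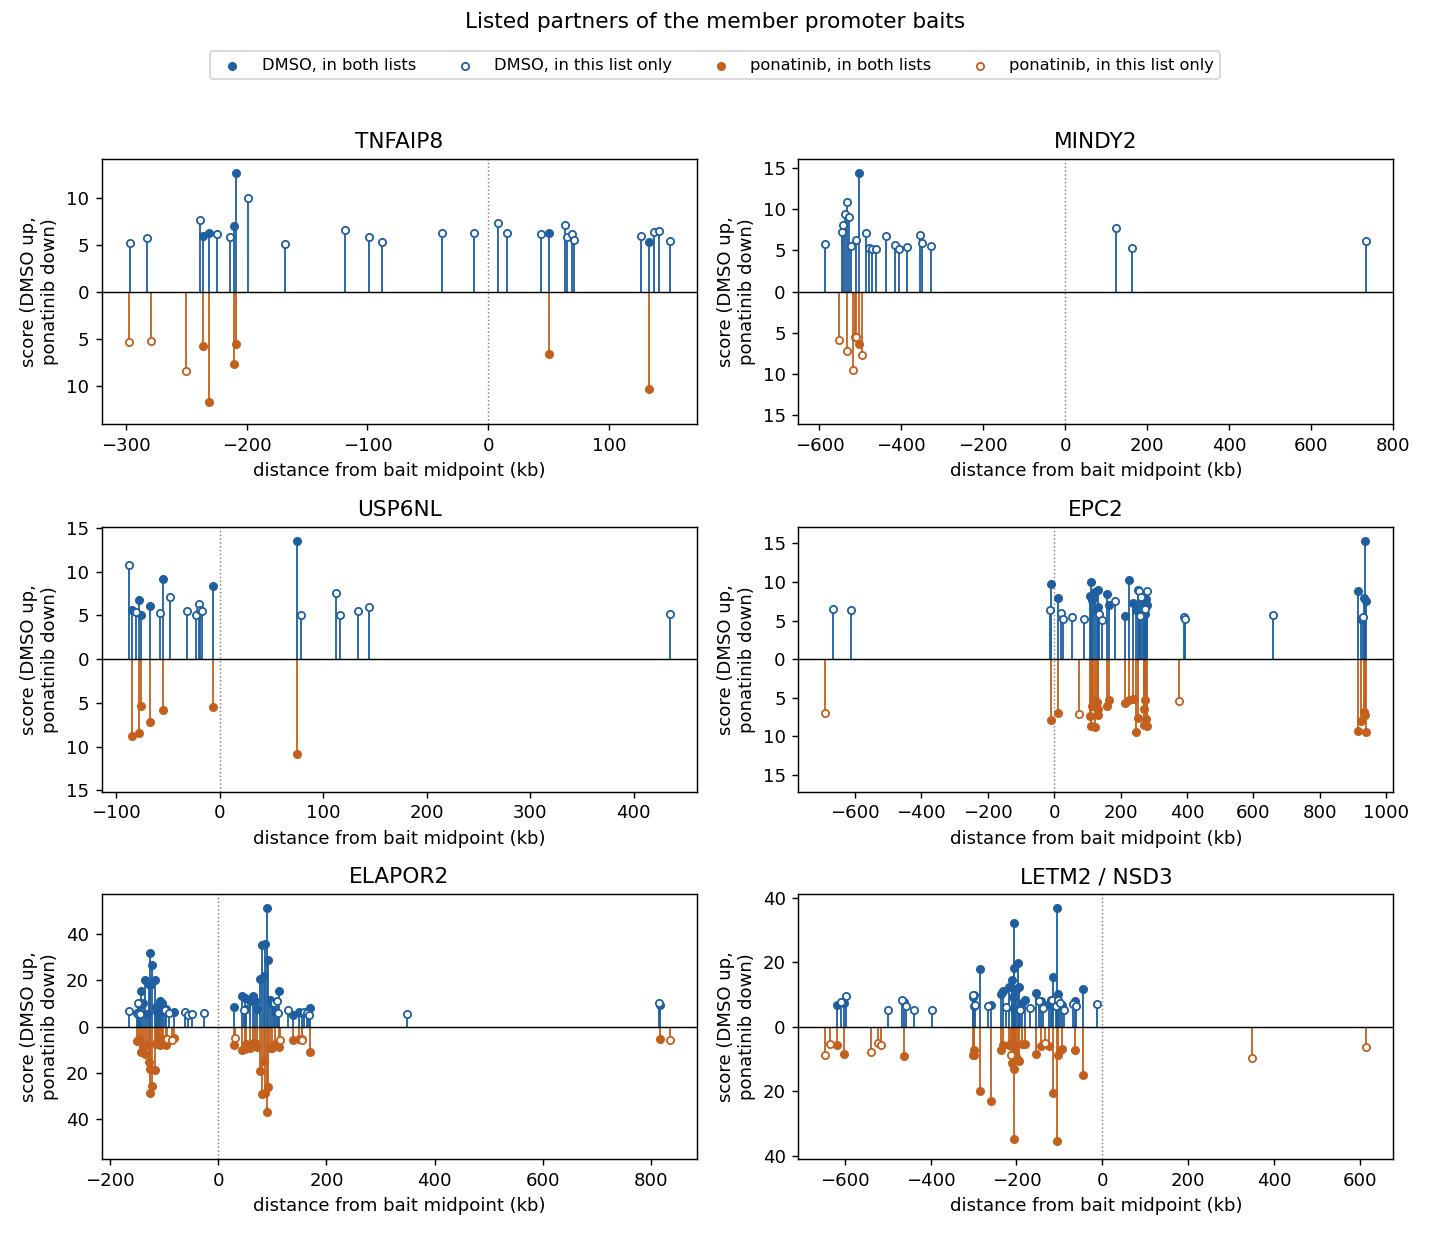
Partners of the 6 member promoter baits by distance from the bait midpoint (kb, within 1000 kb), with the authors' score in DMSO drawn upwards and in ponatinib downwards; filled points are pairs in both lists and open points pairs in one list. Open DMSO points fill the TNFAIP8 and MINDY2 maps, where 24 and 22 pairs were in DMSO alone, while most points are filled for ELAPOR2, with 44 shared pairs.

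At the other 3 loci the difference was smaller relative to the total and the overlap larger. EPC2 (bait chr2:148643055-148657423) had 50 interactions in DMSO and 32 in ponatinib, and 28 were common to both. ELAPOR2 (bait chr7:87057837-87061499) had 65 and 50 with 44 shared, and the fragment that holds ends of both LETM2 and NSD3 (chr8:38379664-38385061) had 55 and 40 with 31 shared. As a share of the ponatinib list this was 87.5% for EPC2, 88% for ELAPOR2 and 77.5% for LETM2, against 40.7% over the whole lists. Choosing genes with fewer interactions in ponatinib than in DMSO raises this share by itself, so nothing is read from that comparison. As a share of the DMSO list it was 56%, 67.7% and 56.4%, against 44.3% over the whole lists. TNFAIP8 and USP6NL shared 66.7% and 70% of the ponatinib list but only 20% and 26.9% of the DMSO list, and MINDY2 14.3% and 4.35%.

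EPC2 contacts ran almost entirely towards higher coordinates, with 43 of 47 partners on chromosome 2 in DMSO and 28 of 30 in ponatinib. Its own gene body held 14 partners in DMSO and 10 in ponatinib. The neuronal kinesin gene KIF5C held 15 and 10, with 9 shared, and the distant gene MMADHC, which acts in vitamin B12 metabolism, held 5 and 4 with 4 shared. The pair with the bait at MMADHC-DT, 934 kb away, scored 15.33 in DMSO and 7.28 in ponatinib, and the pair with the adjacent MMADHC promoter bait scored 7.49 and 9.39. Contacts with LYPD6B numbered 2 in DMSO and 0 in ponatinib. EPC2 was also joined to a bait of NUP214 on chromosome 9, a nuclear pore gene near ABL1, with a score of 7.88 in DMSO and 28.21 in ponatinib. That fragment is no particular partner of EPC2, since it had 666 other interactions in DMSO and 806 in ponatinib. Over both chromosome 9 and chromosome 22, EPC2 had 3 interactions in DMSO and 2 in ponatinib.

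ELAPOR2 had the strongest contacts of the 7 genes. They formed a cluster within its own gene, 26.1 to 165 kb from the bait, with 32 partners in DMSO and 23 in ponatinib, and a second one on the other side around DMTF1, a transcription factor gene. The DMTF1 promoter bait, 92.3 kb away, scored 28.92 in DMSO and 25.9 in ponatinib, and the fragment next to it, the strongest partner of all, scored 51.14 and 36.73. Partners over the DMTF1 gene numbered 10 and 7, and over TMEM243 4 and 4. A distant contact with the shared bait of SLC25A40 and DBF4, the regulatory subunit of the replication kinase CDC7, 817 kb away, scored 9.45 and 5.23.

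The LETM2 and NSD3 fragment looked towards NSD3 and the genes beyond it, and all 55 DMSO partners lay at lower coordinates. NSD3 itself held 13 partners in DMSO and 6 in ponatinib, all 6 of them shared. BAG4, a co-chaperone gene, held 11 and 9 with 9 shared, and the promoter bait of LSM1 and BAG4, 206 kb away, scored 32.05 and 34.86. The strongest partner was a bait inside NSD3 with 36.72 and 35.34. A bait inside ASH2L, a subunit of H3K4 methyltransferase complexes, scored 6.55 and 23.22. Listed in ponatinib alone were baits at ERLIN2 (8.72), at TACC1 (9.83) and at TM2D2 and ADAM9 (6.35). Beyond 500 kb this fragment had 4 partners in DMSO and 8 in ponatinib, so the lower number came from partners within 500 kb.

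NSD3 has a second bait at its other end, shared with PLPP5 (chr8:38266112-38269912). It had 8 interactions in DMSO and 11 in ponatinib (5 in both), so the fewer contacts of NSD3 in ponatinib lay at the LETM2 end alone. Over both baits NSD3 had 62 and 50, counting once the pair that joins them, which scored 15.34 and 20.45. The strongest pair found in ponatinib alone at this second bait joined it to PLPBP, 504 kb away, with 10.9.

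Scores of the shared pairs were lower in ponatinib at these 3 loci more often than in the lists as a whole. The score was lower in 35 of 44 shared pairs of ELAPOR2 (79.5%), in 17 of 28 of EPC2 (60.7%) and in 22 of 35 of LETM2 and NSD3 (62.9%), against 46.1% of all 37194 shared pairs. TNFAIP8 and USP6NL lay on the other side, with 2 of 6 (33.3%) and 3 of 7 (42.9%) lower in ponatinib, while the 1 shared pair of MINDY2 was lower. At ELAPOR2 the median score of shared pairs was 10.07 in DMSO and 8.19 in ponatinib. For EPC2 the medians were 7.8 and 7.27. Shared pairs of the baits around these loci were lower in ponatinib in 10 of 25 cases at ELAPOR2, 6 of 15 at EPC2 and 40 of 109 at LETM2 and NSD3. Scores were used as deposited, and whether they were normalised between the libraries is unknown. They come from the same pair of libraries as the numbers that chose the genes, so this is a description.

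**Figure D2:**
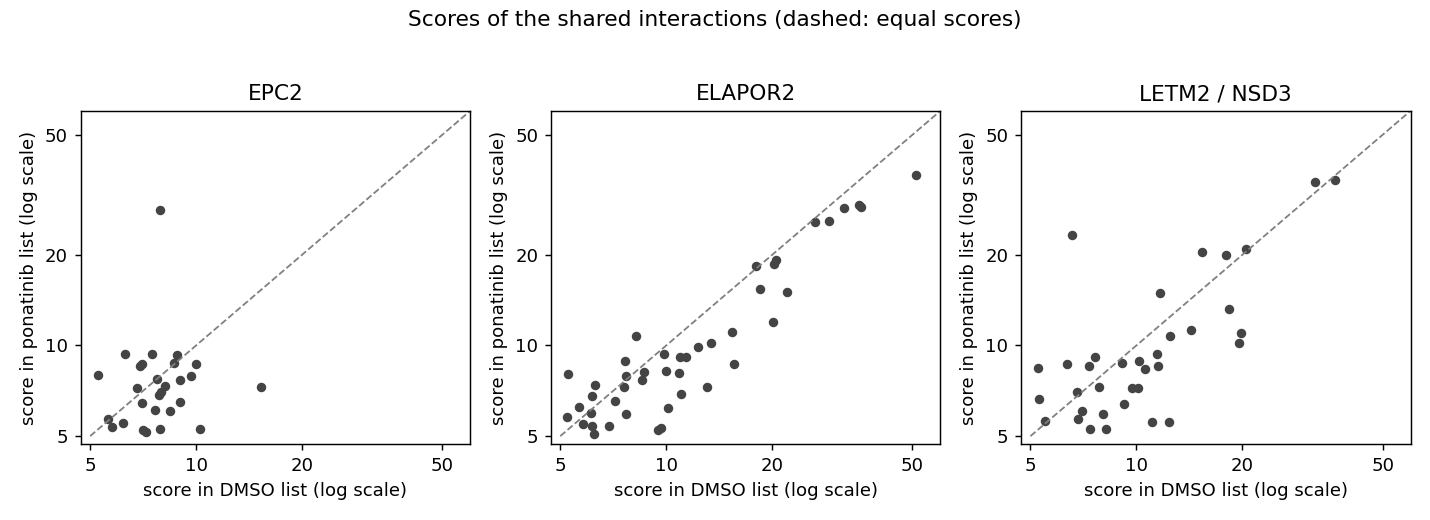
Authors' score in ponatinib against that in DMSO, both on log axes, for the shared pairs of EPC2, ELAPOR2, and LETM2 and NSD3; each point is 1 fragment pair and the dashed line marks equal scores. Of the ELAPOR2 points 35 of 44 lie below the line, and the high EPC2 point is the NUP214 pair with 7.88 and 28.21.

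Most pairs listed in DMSO alone scored near the lower limit, and the same held for the whole lists. Their median score was 6.11 at TNFAIP8, 5.96 at MINDY2, 5.47 at the USP6NL promoter bait, 6.18 at EPC2, 5.96 at ELAPOR2 and 6.63 at the LETM2 and NSD3 fragment, and over all pairs found in DMSO alone it was 5.94. Scores under 7 made up 20 of 24 such pairs at TNFAIP8, 15 of 22 at MINDY2 and 12 of 15 at the USP6NL promoter. They made up 72.7% at EPC2, 66.7% at ELAPOR2 and 62.5% at the LETM2 and NSD3 fragment, against 75.6% of all pairs found in DMSO alone. The highest score of a pair listed in DMSO alone was 10.97, at ELAPOR2.

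By number, 3 of the 7 genes, TNFAIP8, MINDY2 and USP6NL, had at least 2-fold fewer interactions in ponatinib on the scale log2((ponatinib + 1)/(DMSO + 1)), with values of -1.63, -1.58 and -1.30. This criterion was met by 6.26% of 9785 genes with at least 5 interactions, and 9.92% had at least 2-fold more (613 and 971 genes), but since the genes were picked for this number nothing is read from the comparison. With the lists brought to equal length by score the balance over all genes turned, with 827 of 9577 genes at 2-fold fewer and 722 at 2-fold more. At scores of at least 7, TNFAIP8 had 6 and 4 and USP6NL 7 and 4, which is less than 2-fold on this scale, and MINDY2 had 8 and 3. The median over the 7 genes was -0.63 and over all 9785 genes 0.08. With the entries of the DMSO and ponatinib lists added together, the ponatinib share was 23.1% for TNFAIP8 (11.1 to 39.3%), 23.3% for MINDY2 (9.93 to 42.3%) and 27.8% for USP6NL (14.2 to 45.2%). It was 39.0% for EPC2 (28.4 to 50.4%), 43.5% for ELAPOR2 (34.3 to 53.0%), 42.1% for LETM2 (32.0 to 52.7%) and 44.6% for NSD3 (35.2 to 54.3%). The genes were chosen by these numbers, so whether an interval holds 50% is no test for any of the 7. By the same numbers, each member was compared only with genes off the members' own baits. Of these RDH10 and RPL7, which share a bait, were most like TNFAIP8 and USP6NL, with 24 and 10. The genes most like MINDY2 were TMEM14A, with 20 and 7, and RYBP, with 19 and 7. Most like EPC2 was the histone gene H4C8 with 50 and 33, and most like ELAPOR2 was WDR64 with 60 and 46, a likeness over only 2 libraries.

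The baits around the members did not share the lower number. Members were chosen for that number and these baits were not, so a gap between them follows at least in part from the choice. Interactions with a member were left out of these counts. Within 1 Mb of the 6 loci there were 97 other listed baits, of which 52 had more interactions in ponatinib, 30 fewer and 15 equal numbers. The 6 baits around TNFAIP8 had 57 interactions in DMSO and 69 in ponatinib, so that 54.8% were in ponatinib (45.7 to 63.6%). The 20 around MINDY2 had 117 and 117, or 50% (43.4 to 56.6%), and the 17 around USP6NL had 45 and 60, or 57.1% (47.1 to 66.8%). Of those 17 baits 8 had more in ponatinib and 7 fewer, and 1 bait alone had 3 and 15. Around EPC2 the numbers were 41 and 53, or 56.4% (45.8 to 66.6%), around ELAPOR2 54 and 56, or 50.9% (41.2 to 60.6%), and around LETM2 and NSD3 217 and 270, or 55.4% (50.9 to 59.9%). Only this last interval lies above 50%, and over the whole lists 52.1% of interactions were in ponatinib. Pairs in both lists, 109 around LETM2 and NSD3, count on both sides, and adjacent fragments of a bait are not independent. The intervals are therefore no test. Of the 71 neighbouring baits with at least 5 interactions, 4 (5.63%) had at least 2-fold fewer in ponatinib and 11 (15.5%) at least 2-fold more, against 7.17% and 10.5% of all 11362 such baits.

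**Figure D3:**
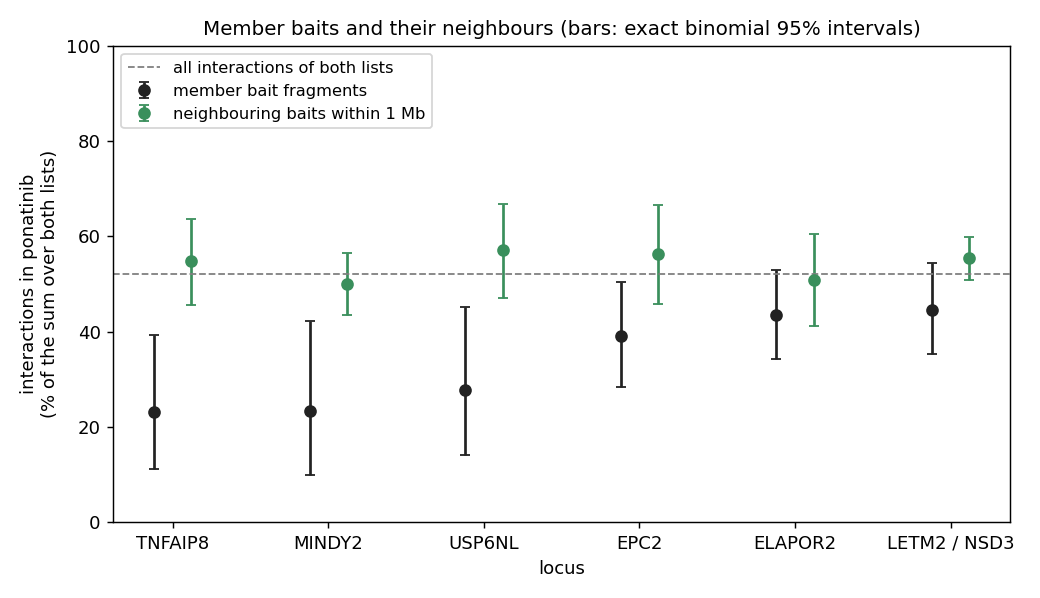
Share of interactions over both lists that were in ponatinib (%), for the member baits (black) and the other baits within 1 Mb (green) at 6 loci; bars are exact binomial 95% intervals and the dashed line marks the whole lists at 52.1%. Member shares lie between 23.1% and 44.6% and neighbour shares between 50% and 57.1%. Members were chosen for a lower number in ponatinib and neighbours were not, so the gap is no test.

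Next to MINDY2 a bait reached the same span in like number in both lists. The promoter bait of ADAM10, a membrane metalloproteinase gene, lies 17.4 kb from the MINDY2 bait and reached into the same span between AQP9 and LIPC through 28 pairs in DMSO and 29 in ponatinib, and 16 of these were common to both. MINDY2 reached that span with 20 and 7, and 1 was common to both. Of the 22 partner fragments that MINDY2 had in DMSO alone, the ADAM10 bait contacted 7 in DMSO and 10 in ponatinib. The bait directly next to that of MINDY2, which holds no end of a protein-coding gene, had 3 and 6 interactions in this span. A bait inside SLTM, 124 kb away on the other side, had 5 and 2 in this span with 0 shared, so not every neighbour kept its contacts there. RNF111, a SUMO-targeted ubiquitin ligase gene 220 kb away, had 15 interactions in all in DMSO and 11 in ponatinib.

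At LETM2 and NSD3 the fragment directly adjacent to the member bait, 7.77 kb away within LETM2 (chr8:38385062-38395211), had 41 interactions in DMSO and 54 in ponatinib, and 34 were common to both. The next one, 17.1 kb away, had 11 and 31. Over the span from ASH2L to NSD3, 13.4 to 302 kb from the member bait, the member bait had 44 and 29 interactions other than that with the second NSD3 bait, and the adjacent bait had 32 and 40. Of the 24 fragments that the member bait contacted in DMSO alone, the adjacent bait contacted 9 in DMSO and 11 in ponatinib, and the RAB11FIP1 bait 6 and 2. Farther off, the LSM1 bait at 216 kb had 25 and 36, RAB11FIP1 at 486 kb had 17 and 8, and the FGFR1 bait at 83.3 kb, at a receptor tyrosine kinase gene, had 16 and 11. Higher numbers in ponatinib were thus not shared by every promoter of the region.

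Around TNFAIP8 the bait in the stretch between DTWD2 and DMXL1, 231 kb away, had 24 interactions in DMSO and 32 in ponatinib, and of the 24 fragments that TNFAIP8 contacted in DMSO alone it contacted 8 and 11. Of the same 24 fragments the DTWD2 bait contacted 5 and 2 and the DMXL1 bait 4 and 2, so not every neighbour kept its contacts there. In all, the DTWD2 bait had 14 and 14, the DMXL1 bait 11 and 11, and HSD17B4, a peroxisomal enzyme gene beyond TNFAIP8, 4 and 3. Next to ELAPOR2 the DMTF1 bait had 29 and 31 and TMEM243 11 and 13. Next to USP6NL the ECHDC3 bait had 13 and 12, and the largest gain in number was at CDC123, a gene for a translation initiation factor chaperone 643 kb away, with 3 and 15. Around EPC2 the MMADHC bait had 14 and 10 and the bait at MMADHC-DT 7 and 10.

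**Figure D4:**
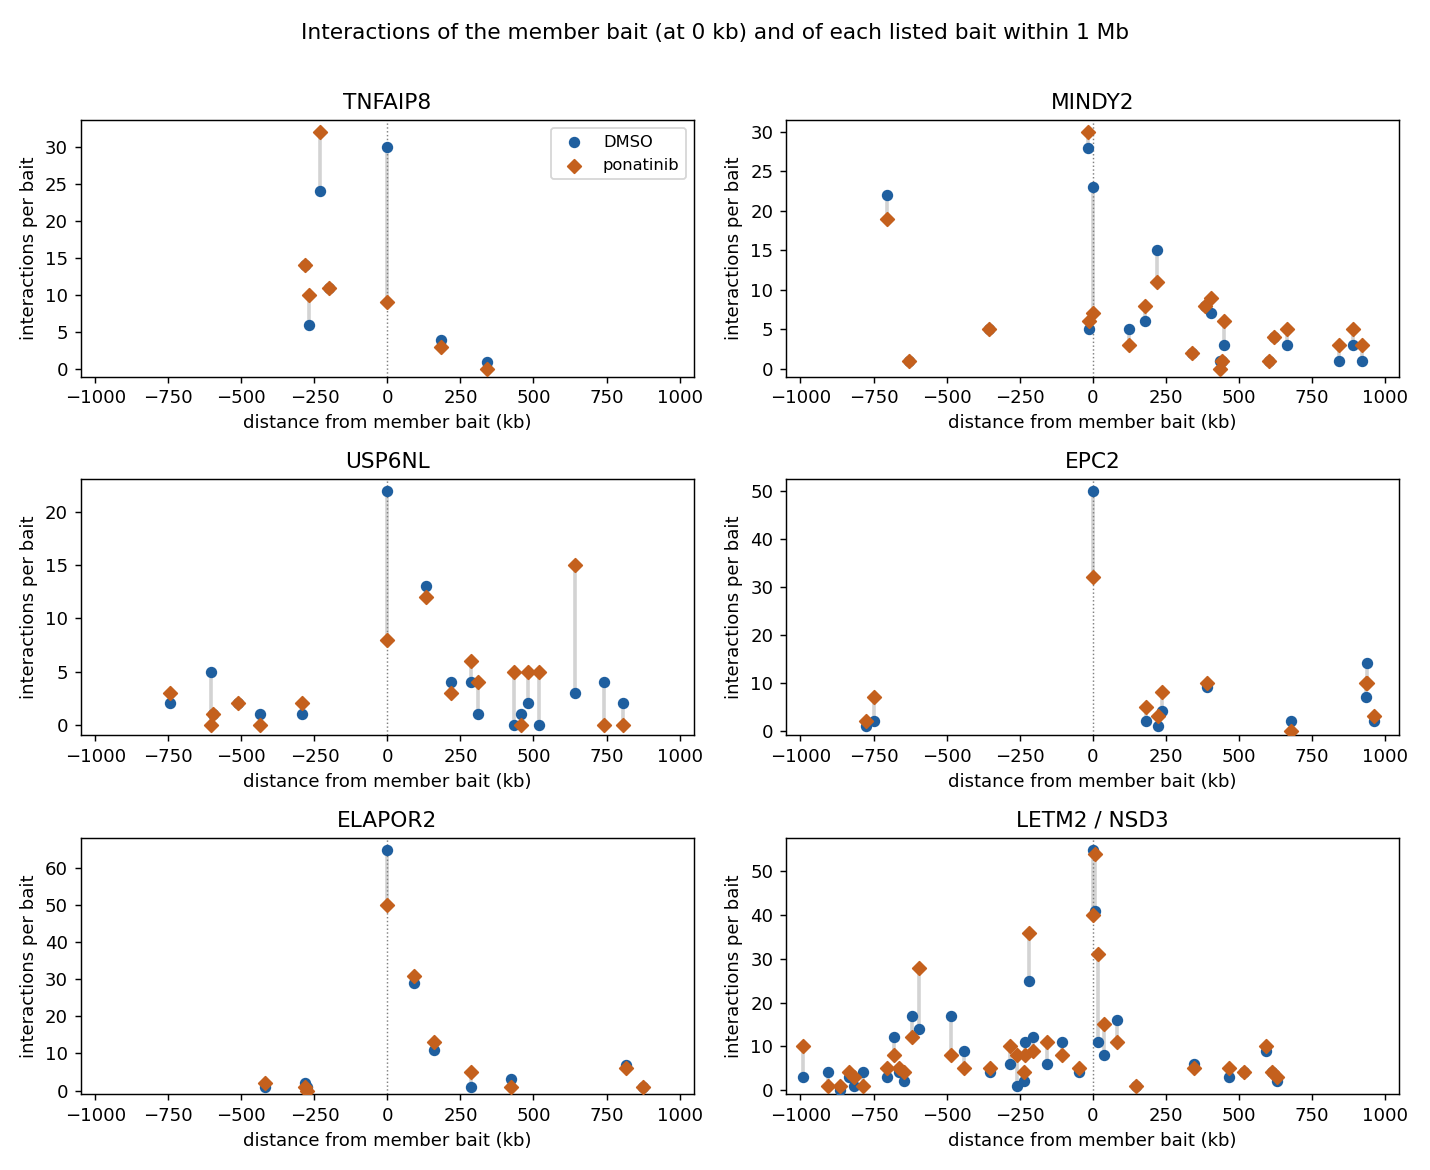
Number of interactions per bait in DMSO (blue circles) and ponatinib (orange diamonds) against distance from the member bait (kb), for the member bait at 0 kb and each other listed bait within 1 Mb; where the numbers are equal only the diamond shows. The member bait at 0 kb has 30 and 9 at TNFAIP8 and 23 and 7 at MINDY2, a drop for which it was chosen, and the DMTF1 bait next to ELAPOR2 has 29 and 31.

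Partner fragments of the members also had interactions without a member, which include their own where they are themselves baits. Among these are the ECHDC3 bait with 13 and 12 and the UPF2 bait with 0 and 5 at USP6NL. At TNFAIP8 they are the DTWD2 bait with 14 and 14 and the DMXL1 bait with 11 and 11. At ELAPOR2 the TMEM243 bait had 11 and 13. There the counts come largely from those baits and do not show what other baits contacted. The 22 fragments that MINDY2 contacted in DMSO alone had 26 such interactions in DMSO and 25 in ponatinib. The 24 such fragments of TNFAIP8 had 33 and 38, and the 20 on chromosome 2 of EPC2 had 15 and 19. For ELAPOR2 the numbers were 16 and 16 over 21 fragments, for USP6NL 16 and 17 over 16 fragments, and for LETM2 and NSD3 61 and 76 over 26 fragments. The share in ponatinib thus lay between 49.0% and 55.9%, and every interval holds 50%, with pairs in both lists again counted on both sides.

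Relatives and complex partners of the members are given from lists drawn up for this purpose, without the members themselves but with genes that share a bait with another gene. Of the MINDY family, MINDY1 had 11 interactions in DMSO and 16 in ponatinib, MINDY3 5 and 5 and MINDY4 3 and 5. TNFAIP8L2, the other TNFAIP8 relative with a bait, had 17 and 16, and ELAPOR1 had 25 and 26. LETMD1 had 14 and 21, and LETM1 was listed at 0 in DMSO with 3 in ponatinib. Of the other 17 NuA4/TIP60 subunits with a bait, 9 had more interactions in ponatinib, 6 fewer and 2 equal numbers, 153 and 174 in all, with a median log2 ratio of 0.22. Among these BRD8, a bromodomain subunit on a bait shared with other genes, had 45 and 57, while TRRAP, the large scaffold subunit, had 18 and 11. YEATS4, a histone acetylation reader, had 4 and 13.

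Of the RAB5 and receptor trafficking genes related to USP6NL, 4 of 7 had more interactions in ponatinib and 3 fewer. RAB5A, the GTPase itself, had 8 and 14 on a bait shared with EFHB, while the RAB5 effector EEA1 had 11 and 3. Of these genes 5 had at least 5 interactions. Among the 5, EEA1 was the 1 with at least 2-fold fewer. RAB5C, with 2 and 7 on a shared bait, was the 1 with at least 2-fold more, against 6.26% and 9.92% of all genes with that minimum. Among the H3K36 methyltransferases and readers NSD1 had 7 and 11, NSD2 6 and 11, SETD2 5 and 4 and ASH1L 6 and 15, all but SETD2 on baits shared with other genes. Of the 13 genes of 8p11 around NSD3, 9 had more and 3 fewer, with a median log2 ratio of 0.26. These are not 13 separate baits, since PLPP5 lies on the second NSD3 bait and BAG4 shares a bait with LSM1. TM2D2 likewise shares a bait with ADAM9, as PLEKHA2 does with HTRA4. No list but the 1 gene of the TNFAIP8 family had a lower total in ponatinib, while single genes such as EEA1 and TRRAP had lower numbers.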

How the data were processed

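Promoter-capture Hi-C lists of 1 DMSO and 1 ponatinib library were used, each with a bait fragment, a partner fragment and a score. The score is the authors' deposited value per interaction; its definition and threshold, the interaction caller and the aligner are not given in the sources used. Coordinates are on the build in the submitters' processing notes, hg38. Lists were read as unordered fragment pairs. Of the 91306 ponatinib lines, 1 pair was listed in both orientations and was counted once. Genes (20033 protein-coding, RefSeq GRCh38.p14) were placed on each bait holding either end, since the gene table gives no strand. Distances are between midpoints, and partner spans join fragments less than 60 kb apart, a value chosen after seeing the data. Neighbouring baits have midpoints within 1 Mb. Counting was tested on simulated lists with planted differences. Python 3.11.15, pandas 2.3.3 and scipy 1.17.1 were used. Members and lists were chosen with earlier results of these data known. Named genes were the members, genes at their strongest and bait partners, neighbouring baits with the most interactions or largest differences, genes of most similar numbers, and family members with the largest differences. Only part of the genes that qualify are named, and a few further genes were picked after their values had been seen. RefSeq sequences matched 5 of 7 genes. Alternatives were higher score limits, equal list lengths, other gene placements, distances and matching of ends.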

Additional observations from a re-analysis of the deposited data

How the results depend on the processing

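The genes were chosen for their lower number in ponatinib, and several alternatives could not change it, so that it was kept elsewhere is no sign of stability. TNFAIP8 had 50% of its interactions in ponatinib at scores of at least 10 (2 and 2), and at scores of at least 7 it had 40% (6 and 4), so most of its difference lay in pairs with scores under 7. MINDY2 had 0% at scores of at least 10 (2 and 0). For neighbouring baits 38 of 42 alternative shares did not lie below 50%. The share moved to 45.2% at EPC2 with scores of at least 7, and with scores of at least 10 to 57.1% at MINDY2, 83.3% at USP6NL (1 and 5) and 61.0% at LETM2 and NSD3. Neighbour shares were also below 50% around MINDY2 in lists of equal length (48.5%) and after scaling to the list lengths (47.9%), and around ELAPOR2 under the latter (48.8%). Matching partner ends within 5 kb raised the shared part of the DMSO list to 50% at TNFAIP8, 26.1% at MINDY2, 50% at USP6NL, 76% at EPC2, 90.8% at ELAPOR2, 90.9% at LETM2 and 90.3% at NSD3. Within 10 kb the values were 60%, 39.1%, 61.5%, 84%, 90.8%, 92.7% and 91.9%, and at scores of at least 7 MINDY2 shared 0%. Genes with at least 2-fold fewer interactions numbered 613 of 9785, against 257 of 4863 and 60 of 1812 at scores of at least 7 and 10, 243 of 6379 with at least 10 interactions and 827 of 9577 in lists of equal length, and a pseudocount of 0.5 gives the same 613 by construction. No paired analysis was possible because there was 1 library per treatment. Without read counts, what depth limits cannot be given.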
